A study of Mus musculus with 23 samples.

Results

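The high-fat diet (HFD) effect in wild-type mouse liver was studied by setting the 4 liver RNA-seq libraries titled wild type and fatty diet against the 4 titled wild type and normal diet, which are 8 of the 23 libraries of the series. The other 15 libraries come from IL-4 knockout (IL4KO) mice and from mice labelled as IL-10/IL-4 double knockouts (dKO). All mice were males on a C57Bl/6 background, obtained from Taconic Farms at 6 to 8 weeks of age. They were then kept for 15 weeks on chow or on a diet (Harlan TD.06414) that gives 60% of its calories as fat. Livers were perfused, and the libraries are of bulk liver tissue of wild-type mice on chow (WT_chow) or on HFD (WT_HFD). The labels do not say that each library came from its own animal, so p-values measure the spread between libraries, and replicate numbers only follow the order of deposit. The labels give no fasting state, hour of collection, body weight or histology. Gene levels are given as CPM, the count of a gene scaled to a common library size, and values for single libraries are listed in the order of replicates 1 to 4. Gene-level differences are log2 fold changes of HFD over chow with a standard error (SE), from edgeR's quasi-likelihood test with 4 libraries in each wild-type group. For this test the spread of a gene was estimated over all 23 libraries in 6 groups, not over the 8 wild-type libraries alone. FDR is the p-value of that test adjusted by the Benjamini-Hochberg method over all 12891 tested genes. A gene is said to have risen or fallen on HFD where its FDR was below 0.05.

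The liver takes up fatty acids from blood, makes them from sugar, burns them in mitochondria and peroxisomes, or stores them as triglyceride in lipid droplets. A diet rich in fat loads this system, and in mice it is a standard way to bring about a fatty liver. Receptors of the PPAR family sense fatty acids and switch on genes of fat burning (PPARA) and of fat storage (PPARG).

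Library totals were 10878989 to 12546497 counts in WT_chow and 8601857 to 18240402 in WT_HFD. Total counts, the number of genes detected and the share of counts in the 10 most abundant genes gave exact permutation p-values of 0.4, 0.6 and 0.286 between the diets (two-sided, adjusted p 0.6 for each of the 3, smallest possible p 0.0286). Alb, the gene of serum albumin made by hepatocytes, held 80620 to 87885 CPM in WT_chow and 80657 to 95689 CPM in WT_HFD. Il4 had 0 counts in all 8 libraries and Il10 had 0 to 4, so neither cytokine gene could be followed. In bulk tissue, fewer cells of a type and less RNA per cell cannot be told apart.

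Of the 12891 tested genes, 2511 (19.5%) passed the test, 1242 higher (9.63%) and 1269 lower (9.84%) on HFD. The changes upward were larger. Among the genes that rose, 324 (26.1%) changed by more than 2-fold, against 109 (8.59%) of the genes that fell. The genes that rose were also lower on chow, with a median of 17.6 CPM against 32.9 CPM. The part of level in the sizes was not tested. The CPM of the 4 HFD libraries did not overlap with those of the 4 chow libraries for 24.3% of tested genes. The share of genes that passed varied with level. It was 6.63% of genes with a mean below 1 CPM and 13.2% of those with 1 to 10 CPM. It was 24.5% of those with 10 to 100 CPM, 26.9% of those with 100 to 1000 CPM and 21.3% of those above. The first principal component of the 8 libraries held 50.9% of the variance and ran from -25.56 to -14.62 in chow and from 13.62 to 26.94 on HFD. The libraries were not equally far apart along it. WT_HFD replicate 2 was the lowest of the 4 HFD libraries for 479 of the 1242 genes that rose and the highest for 490 of the 1269 that fell. WT_chow replicate 1 was the highest chow library for 509 of the genes that rose. Without WT_HFD replicate 4 the number of genes passing was 1750, the lowest when single libraries were left out, and 1180 of the 2511 passed under every alternative that was run.

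**Figure D1:**
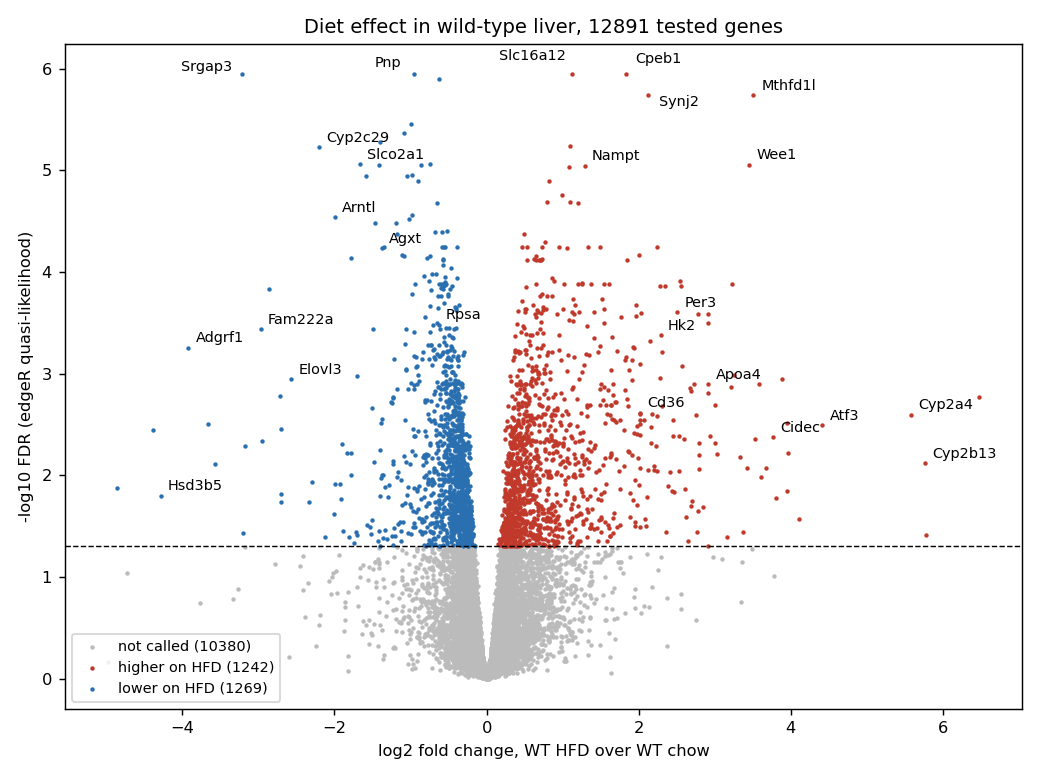
Each point is 1 of 12891 tested genes, placed by its log2 fold change of HFD over chow in wild-type liver (x axis) and by -log10 of its FDR (y axis), with the dashed line at an FDR of 0.05. The genes that rose spread further along the x axis than the genes that fell, with 324 against 109 beyond a 2-fold change, and Mthfd1l and Wee1 are high on the right.

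Some genes that bring fatty acids into cells and split their activated forms rose on HFD. Of 16 tested genes of fatty acid uptake and binding, Cd36, Fabp4 and Fabp2 rose and Lipc fell (median log2 fold change 0.20, against -0.003 over all tested genes), and in the 8 wild-type libraries alone 6 rose and 2 fell. Fabp4 is also known from fat cells and macrophages. Cd36, the gene of a fatty acid transporter of the cell surface, stood at 96.3, 52.4, 79.2 and 85.7 CPM in chow livers and at 367, 230, 372 and 297 CPM on HFD (log2 fold change 2.01, SE 0.404, FDR 0.00243). Every HFD library was above every chow library. Fabp2, which encodes the fatty acid binding protein known from the intestine, went from 72.6, 76.1, 110 and 77.7 CPM to 206, 185, 237 and 176 CPM (1.26, SE 0.226, FDR 0.000961). Fabp1, the main fatty acid binding protein gene of hepatocytes, was at 3978 to 4308 CPM on chow and 4981 to 5629 CPM on HFD, without overlap, but did not pass (0.37, SE 0.148, FDR 0.0828). It passed with DESeq2 (FDR 0.0465) and in a fit of the 8 wild-type libraries alone (FDR 0.00775). Lipc, the gene of hepatic lipase, fell from 184, 194, 215 and 210 CPM to 104, 132, 125 and 113 CPM (-0.76, SE 0.113, FDR 0.000124).

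Acyl-CoA thioesterases cut activated fatty acids back to free fatty acids and coenzyme A. Of 20 tested genes of acyl-CoA synthetases and thioesterases, 8 rose and 0 fell, and 5 of those that rose were thioesterases. Acot3 went from 3.14, 2.69, 2.81 and 4.04 CPM to 32.4, 18.9, 37.6 and 15 CPM (3.02, SE 0.702, FDR 0.00624). Its neighbours Acot2 and Acot4 lie within the same stretch of chromosome 12, which runs from 83987861 at Acot2 to 84060400 at the end of Acot3 in GRCm38, the build named mm10. Acot2 went from 2.44 to 3.33 CPM on chow to 9.39 to 14 CPM on HFD, a 4.04-fold rise, and Acot4 rose 2.49-fold. Counts of genes in this family of near copies may be divided between them with error. Acot11 and Acot13, on other chromosomes, rose 2.49-fold and 1.55-fold (FDR 0.000343 and 0.00161).

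Genes that build and coat lipid droplets rose more often than they fell. Of 22 tested genes of droplet coats and lipolysis, 11 rose and 0 fell (median 0.39), and of 17 genes of triglyceride synthesis 6 rose and 0 fell. Pparg, the nuclear receptor of fat storage, was at 9.43, 7.99, 9.51 and 9.49 CPM on chow and at 22.7, 16.6, 29 and 28.7 CPM on HFD (1.41, SE 0.235, FDR 0.000444). Cidec, whose protein fuses droplets, was at 8.05, 1.63, 18.4 and 4.79 CPM on chow and at 141, 78.9, 127 and 96.4 CPM on HFD (3.76, SE 0.814, FDR 0.0042). Without WT_chow replicate 3, its highest chow library, the log2 fold change was 4.54, and limma-voom gave an FDR of 0.0592. Its relative Cidea was at 3.7, 0, 4.26 and 1.6 CPM against 43.3, 34.8, 26.6 and 15.6 CPM (3.67, SE 0.895, FDR 0.00847), with an FDR of 0.267 by limma-voom. Both genes are also used in fat cells, so the fat cell markers were read beside them. Plin1 had 0 counts in all 8 libraries, Adipoq 0 to 2 and Lep 0 to 1. Of the 12 fat cell and muscle markers 9 had too few counts to be tested, and of the other 3, Cidea and Cfd rose. Cfd, the gene of the fat cell product adipsin, was at 1.57, 0.571, 4.35 and 2.44 CPM on chow and at 7.37, 36.2, 23.7 and 12.8 CPM on HFD (3.16, SE 1.04, FDR 0.0402). It missed the threshold by limma-voom (FDR 0.37), on the deposited log2 values (2.49, FDR 0.0828), with no filter (FDR 0.0573) and without any one wild-type library other than WT_HFD replicate 1 (FDR 0.054 to 0.108). The summed level of the 12 markers was 4.48 to 13.3 CPM on chow and 32.4 to 74.6 CPM on HFD. That sum counts Cidea itself and Cfd, so it is no separate reading of fat cells beside Cidea. The part of fat cells in the Cidec and Cidea values was not tested. Hsd17b13, which encodes a droplet protein of hepatocytes, rose from 422, 415, 405 and 460 CPM to 818, 676, 620 and 746 CPM (0.75, SE 0.165, FDR 0.00319). Hilpda, an inhibitor of lipolysis, rose in all HFD libraries, and WT_HFD replicate 4 was highest with 12.5 CPM against 4.79 to 6 CPM in the other HFD libraries and 2.2 to 4.07 CPM on chow. Plin2, a droplet coat gene, overlapped between diets, at 425 to 640 CPM on chow and 623 to 834 CPM on HFD (FDR 0.278).

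For triglyceride synthesis, Mogat1, an enzyme of the monoacylglycerol route, rose from 2.96, 0.815, 1.36 and 1.6 CPM to 11.5, 5.16, 12.1 and 7.09 CPM (2.41, SE 0.607, FDR 0.0092). On the deposited log2 values the difference was 1.81. Agpat9, which encodes a glycerol-phosphate acyltransferase, rose from 3.48 to 5.63 CPM to 14.7 to 22 CPM (1.94, SE 0.325, FDR 0.000566). Gpam, which encodes the mitochondrial enzyme of the same step, was at 134, 138, 127 and 107 CPM on chow and 278, 191, 284 and 296 CPM on HFD, with replicate 2 apart from the other HFD livers. Gk, the kinase that supplies glycerol phosphate, rose 1.67-fold (FDR 0.00022). Dgat2, which adds the last fatty acid, stood at 475 to 566 CPM on chow and 564 to 623 CPM on HFD and did not pass (FDR 0.14).

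Genes that make and reshape fatty acids changed unevenly. Of 19 tested lipogenic enzymes and regulators, 4 rose and 4 fell, and without WT_HFD replicate 4 the numbers were 2 and 3. Srebf1, the regulator that drives lipogenesis under insulin, rose from 155, 183, 234 and 215 CPM to 332, 380, 384 and 398 CPM (0.92, SE 0.234, FDR 0.00924). Thrsp, a lipogenic factor, rose from 374 to 518 CPM to 1099 to 1282 CPM (1.37, SE 0.32, FDR 0.00581). Fasn, the fatty acid synthase gene, overlapped between diets, at 971 to 1555 CPM on chow and 1321 to 2117 CPM on HFD (FDR 0.179). Of 15 desaturases and elongases, 7 rose and 1 fell, and without WT_HFD replicate 4 or without WT_chow replicate 4 there were 4 and 1. Fads1, the delta-5 desaturase gene, rose 1.48-fold (FDR 0.000519). Elovl5, an elongase of polyunsaturated fatty acids, rose from a mean of 1007 ± 323 CPM to 1725 ± 271 CPM (SD, n = 4; FDR 0.00901). Elovl3 fell from 328, 285, 745 and 259 CPM to 50.6, 97.8, 50.1 and 73.5 CPM (-2.57, SE 0.462, FDR 0.00114). For Scd1, the stearoyl-CoA desaturase gene, WT_chow replicate 1 stood apart, with 26665 CPM against 4456 to 4805 CPM in the other chow livers and 11477 to 22999 CPM on HFD. It did not pass with that library (0.63, SE 0.476, FDR 0.386), and without it the log2 fold change was 1.75 with an FDR of 0.000789.

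Fat-burning genes rose where they changed. Of 33 tested genes of mitochondrial and peroxisomal fatty acid oxidation, 19 rose and 0 fell (median 0.39), and 21 had HFD libraries that were all above the chow libraries, against 12.4% of all tested genes. The number that rose was 13 to 23 over the alternatives. Acaa1b, the peroxisomal thiolase gene, went from 1382, 756, 1451 and 1058 CPM to 2943, 2233, 2649 and 2386 CPM (1.14, SE 0.293, FDR 0.0102). Abcd2, which encodes a transporter of long acyl chains into peroxisomes, rose 2.23-fold, from 23.6 to 34.3 CPM to 55.2 to 77.6 CPM. Ppara itself, the fatty acid receptor, rose from 323, 350, 270 and 284 CPM to 460, 487, 531 and 400 CPM (0.61, SE 0.158, FDR 0.00913). Cpt1a, which lets fatty acids into mitochondria, was 1.44-fold higher with no overlap (FDR 0.00263).

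Among 25 tested genes of omega oxidation, ketone bodies and other PPARA targets, 7 rose and 3 fell, or 12 and 4 in the 8 wild-type libraries alone. Vnn1, a pantetheinase gene, rose from 53.5, 50.3, 74.3 and 62.1 CPM to 185, 166, 199 and 146 CPM (1.53, SE 0.298, FDR 0.00183), and Aldh3a2, a fatty aldehyde dehydrogenase, rose 2.44-fold (FDR 0.00726). Cyp4a14, a fatty acid omega-hydroxylase, was at 197, 373, 362 and 321 CPM on chow and at 1448, 1110, 1390 and 897 CPM on HFD. The groups did not overlap, yet with the spread of all 6 groups of the series it did not pass (1.95, SE 0.879, FDR 0.132). In the 8 wild-type libraries alone its FDR was 0.00128, and that of Cyp4a10 was 0.000742 in place of 0.247. Cyp4f14, another P450 of fatty acid hydroxylation, fell from 323, 345, 324 and 344 CPM to 91.8, 221, 110 and 168 CPM (-1.18, SE 0.301, FDR 0.0105). Of 38 tested genes of oxidative phosphorylation, 1 rose (Cycs) and 1 fell (Ndufs7), or 3 and 1 in the 8 wild-type libraries alone.

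Apoa4, the gene of an apolipoprotein carried on triglyceride-rich particles, stood at 474, 252, 384 and 368 CPM on chow and at 3222, 2031, 2757 and 3135 CPM on HFD, a 7.54-fold difference (2.91, SE 0.535, FDR 0.00128). Apoc2, the cofactor of lipoprotein lipase, rose 1.82-fold (FDR 0.000608). Of 25 tested genes of lipoprotein assembly, 3 rose (12%), Apoa4 and Apoc2 among them, and Apom and Lrp1 fell (8%). These shares were near those of all tested genes, 9.63% and 9.84%. Neither Apom nor Lrp1 fell in the fits without WT_HFD replicate 1, WT_chow replicate 2 or WT_chow replicate 4. In the 8 wild-type libraries alone 3 rose and 6 fell. Of 32 tested genes of cholesterol synthesis and uptake, 3 rose (9.38%), Abca1 among them, and Tm7sf2 and Ebp fell (6.25%), with a median of -0.03. These shares too were near those of all tested genes. The counts were 3 and 0 without WT_HFD replicate 3 and 5 and 4 with DESeq2. Sqle, the squalene epoxidase gene, was at 99.5 to 179 CPM on chow and 66.2 to 186 CPM on HFD (FDR 0.658).

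**Figure D2:**
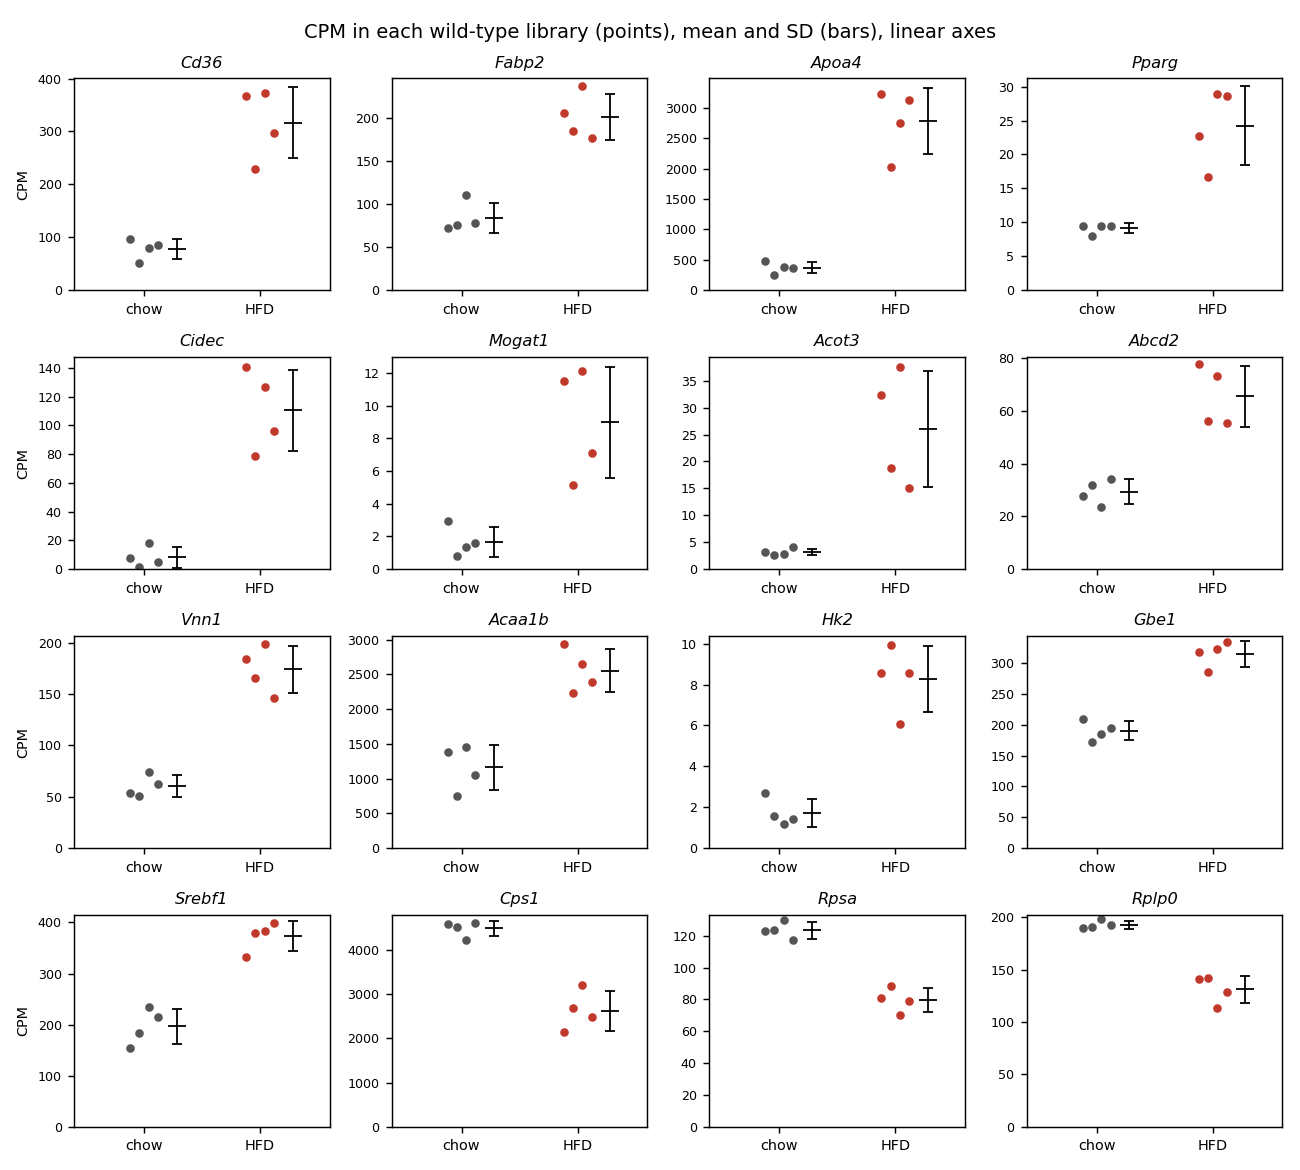
CPM (y axes, linear, from 0) of 16 genes in each wild-type library (points, in order of replicate), with mean and SD beside them, on chow (grey) and HFD (red). In all 16 panels the groups are apart; Apoa4 runs from 252 to 474 CPM on chow and from 2031 to 3222 CPM on HFD, and Cps1 and the ribosomal protein genes Rpsa and Rplp0 are lower on HFD.

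Sugar-handling genes also rose where they changed. Of 37 tested genes of glycolysis, glycogen and sugar entry, 20 rose and 0 fell (median 0.38). Many of these calls were near the threshold: the number that rose was 11 without WT_HFD replicate 1, 13 without WT_HFD replicate 3, 11 without WT_HFD replicate 4, 7 without WT_chow replicate 2, 11 without WT_chow replicate 3 and 10 without WT_chow replicate 4, and it was 13 on the deposited log2 values or after thinning. Hk2, a hexokinase gene that hepatocytes use little, rose from 2.68, 1.55, 1.18 and 1.41 CPM to 8.55, 9.93, 6.07 and 8.56 CPM (2.29, SE 0.383, FDR 0.000419). Among the glycogen genes of the list, Gys2, the liver glycogen synthase, rose 1.46-fold (FDR 0.00445), Gbe1, the branching enzyme, 1.65-fold (FDR 0.000165) and Ugp2, which makes the UDP-glucose they use, 1.61-fold (FDR 0.00321). Gbe1 was at 210, 173, 186 and 194 CPM on chow and 318, 286, 323 and 334 CPM on HFD. Pfkl, the liver phosphofructokinase, rose 1.58-fold, with 57.7 to 80.1 CPM on HFD against 42.4 to 46.3 CPM on chow. Slc2a1, a glucose transporter, was at 18.3 and 18.8 CPM in WT_HFD replicates 1 and 3 and at 28.4 and 31 CPM in replicates 2 and 4, against 11.7 to 17.1 CPM on chow (0.78, SE 0.155, FDR 0.00146).

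Among genes of gluconeogenesis and insulin signalling, 6 of 29 rose and 6 fell, with 4 and 3 without WT_HFD replicate 3 and 3 and 4 without WT_HFD replicate 4. Irs2, an adaptor of the insulin receptor, fell from 8.23, 13.3, 10.1 and 13.2 CPM to 4.8, 6, 4.67 and 7.52 CPM (-0.94, SE 0.228, FDR 0.00626). Trib1, a regulator of hepatic lipid genes, rose 1.77-fold and was highest, with 155 CPM, in WT_HFD replicate 4. Pck1, an enzyme of glucose production, overlapped between diets at 3721 to 5182 CPM on chow and 3389 to 4824 CPM on HFD (FDR 0.735).

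Genes of amino acid breakdown and the urea cycle fell more often than they rose. Of 40 tested, 2 rose (5%) and 7 fell (17.5%), or 1 and 4 without WT_chow replicate 3. Of all tested genes, 9.63% rose and 9.84% fell. Cps1, the entry enzyme of the urea cycle and one of the most abundant liver mRNAs, fell from 4598, 4530, 4230 and 4607 CPM to 2142, 2680, 3217 and 2474 CPM (-0.77, SE 0.188, FDR 0.00634). Nags, which makes the activator of that enzyme, fell 1.41-fold (FDR 0.00277). Agxt, an aminotransferase that removes glyoxylate, fell from 380, 515, 459 and 431 CPM to 151, 189, 202 and 145 CPM (-1.38, SE 0.185, FDR 5.83e-05), and Hal, which opens histidine breakdown, fell 1.89-fold (FDR 0.00128).

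In the list of tryptophan, NAD and one-carbon metabolism, 4 of 38 genes rose (10.5%) and 7 fell (18.4%), with a median of -0.008. Over the alternatives 3 to 4 rose and 4 to 10 fell. The shares of all tested genes were 9.63% and 9.84%. Mthfd1l, a mitochondrial enzyme that releases formate for one-carbon units, had one of the lowest FDRs of all genes. It was at 0.462, 0.734, 0.543 and 0.752 CPM on chow and at 9.04, 4.47, 8.76 and 6.43 CPM on HFD (3.50, SE 0.349, FDR 1.82e-06), and the difference was 2.16 on the deposited log2 values. Cbs, the enzyme that commits homocysteine to cysteine, fell from 725, 804, 775 and 764 CPM to 436, 463, 507 and 430 CPM (-0.74, SE 0.104, FDR 7.01e-05). Gnmt, which spends methyl groups on glycine, fell 1.65-fold (FDR 0.00674). Nampt, the rate-limiting enzyme of NAD salvage and also an output of the clock, rose from 62.2, 57.7, 53.9 and 80.6 CPM to 141, 155, 172 and 153 CPM (1.29, SE 0.145, FDR 8.98e-06). In phospholipid synthesis, the choline kinase gene Chka fell from 51.9, 62, 76.3 and 56.7 CPM to 29.1, 27.2, 22.4 and 36.5 CPM (-1.09, SE 0.149, FDR 7.01e-05), and Pemt, which makes phosphatidylcholine by methylation, fell 1.24-fold (FDR 0.00752).

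The genes of ribosomal proteins, which build the machine that translates mRNA, fell where they changed. Of 53 tested cytosolic ribosomal protein genes, 31 fell and 0 rose (median -0.38), and in 35 of them every HFD library was below every chow library, against 12% of all tested genes. The number that fell was 24 to 37 over all alternatives. Rplp0 was at 190, 191, 198 and 193 CPM on chow and at 141, 142, 114 and 128 CPM on HFD (-0.55, SE 0.0959, FDR 0.000489), and Rpsa fell from 117 to 130 CPM to 70.2 to 88.6 CPM. Rpl3 fell 1.33-fold. The summed level of the 53 genes was 3442 to 3748 CPM on chow and 2466 to 2970 CPM on HFD. Ribosomal protein genes have many processed copies in the genome, and their counts depend on how such reads were assigned. Of 34 tested proteasome genes, 9 fell and 0 rose, with 3 without WT_HFD replicate 4, 4 without WT_chow replicate 2 and 3 without WT_chow replicate 3, 4 with no filter and 3 after thinning. Those falls were all small, since the lowest log2 fold change in the list was -0.32.

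The unfolded protein response adjusts folding capacity in the endoplasmic reticulum. Of 39 tested genes of this and the integrated stress response, 3 rose and 7 fell (median -0.29), or 3 and 3 without WT_HFD replicate 4, WT_chow replicate 2 or WT_chow replicate 4. Sdf2l1, an induced helper of the chaperone BiP, fell from 23.3, 49, 30.5 and 62.6 CPM to 12.9, 19.6, 14.4 and 16.2 CPM (-1.39, SE 0.354, FDR 0.0106). Hspa5, the BiP gene, was at 1088 to 2202 CPM on chow and 965 to 1119 CPM on HFD and did not pass (FDR 0.106), nor did Ddit3 (FDR 0.45), a gene of prolonged stress.

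Secreted hepatocyte products were lower in part. Of 53 tested genes of complement and coagulation, 3 rose (5.66%) and 13 fell (24.5%), against 9.63% and 9.84% of all tested genes (median -0.25). In 21 every HFD library was below every chow library, against 12% of all tested genes. Of 21 hepatocyte markers, 8 fell and 0 rose, some of them shared with that list. Both counts rest on the libraries. The complement and coagulation genes that rose and fell numbered 1 and 3 without WT_HFD replicate 1, 2 and 7 without WT_HFD replicate 3, 0 and 2 without WT_HFD replicate 4, 0 and 4 without WT_chow replicate 2 and 0 and 9 without WT_chow replicate 4, and 4 and 23 in the 8 wild-type libraries alone. The hepatocyte markers that fell numbered 4 without WT_HFD replicate 1, 5 without WT_HFD replicate 3, 4 without WT_HFD replicate 4, 4 without WT_chow replicate 2 and 4 without WT_chow replicate 4. Fga and Fgg, which encode chains of fibrinogen, moved together. Fga was at 6617, 9018, 6106 and 7054 CPM on chow and at 3428, 4005, 3611 and 3328 CPM on HFD (-1.003, SE 0.289, FDR 0.0191), and it missed the threshold without WT_HFD replicate 4 (FDR 0.0531) or WT_chow replicate 2 (FDR 0.0597). Fgg was 1.91-fold lower (FDR 0.0232), with an FDR of 0.0599, 0.061 and 0.0698 without WT_HFD replicate 1, WT_HFD replicate 4 and WT_chow replicate 2. F7, the gene of coagulation factor VII, fell from 87.9, 116, 106 and 96.9 CPM to 49.9, 67.4, 67.4 and 53.8 CPM (-0.77, SE 0.204, FDR 0.0118). Hnf4a, the master regulator of hepatocyte identity, fell from 958, 899, 928 and 1253 CPM to 662, 735, 767 and 685 CPM (-0.50, SE 0.135, FDR 0.0112), with an FDR of 0.0508 without WT_chow replicate 4.

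Hamp, which encodes the iron hormone hepcidin, was at 720, 452, 580 and 551 CPM on chow and at 125, 91.6, 138 and 76.9 CPM on HFD, a 5.34-fold lower level without overlap. It did not pass over the 6 groups (-2.42, SE 0.876, FDR 0.0616), and it did in the fit of the 8 wild-type libraries (FDR 0.000383), with DESeq2 (FDR 0.032) and without robust estimation (FDR 0.0359). Bmp6, the signal that raises hepcidin, fell from 4.9, 4.16, 5.8 and 6.39 CPM to 2.02, 2.69, 1.4 and 2.67 CPM (-1.24, SE 0.251, FDR 0.00176).

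**Figure D3:**
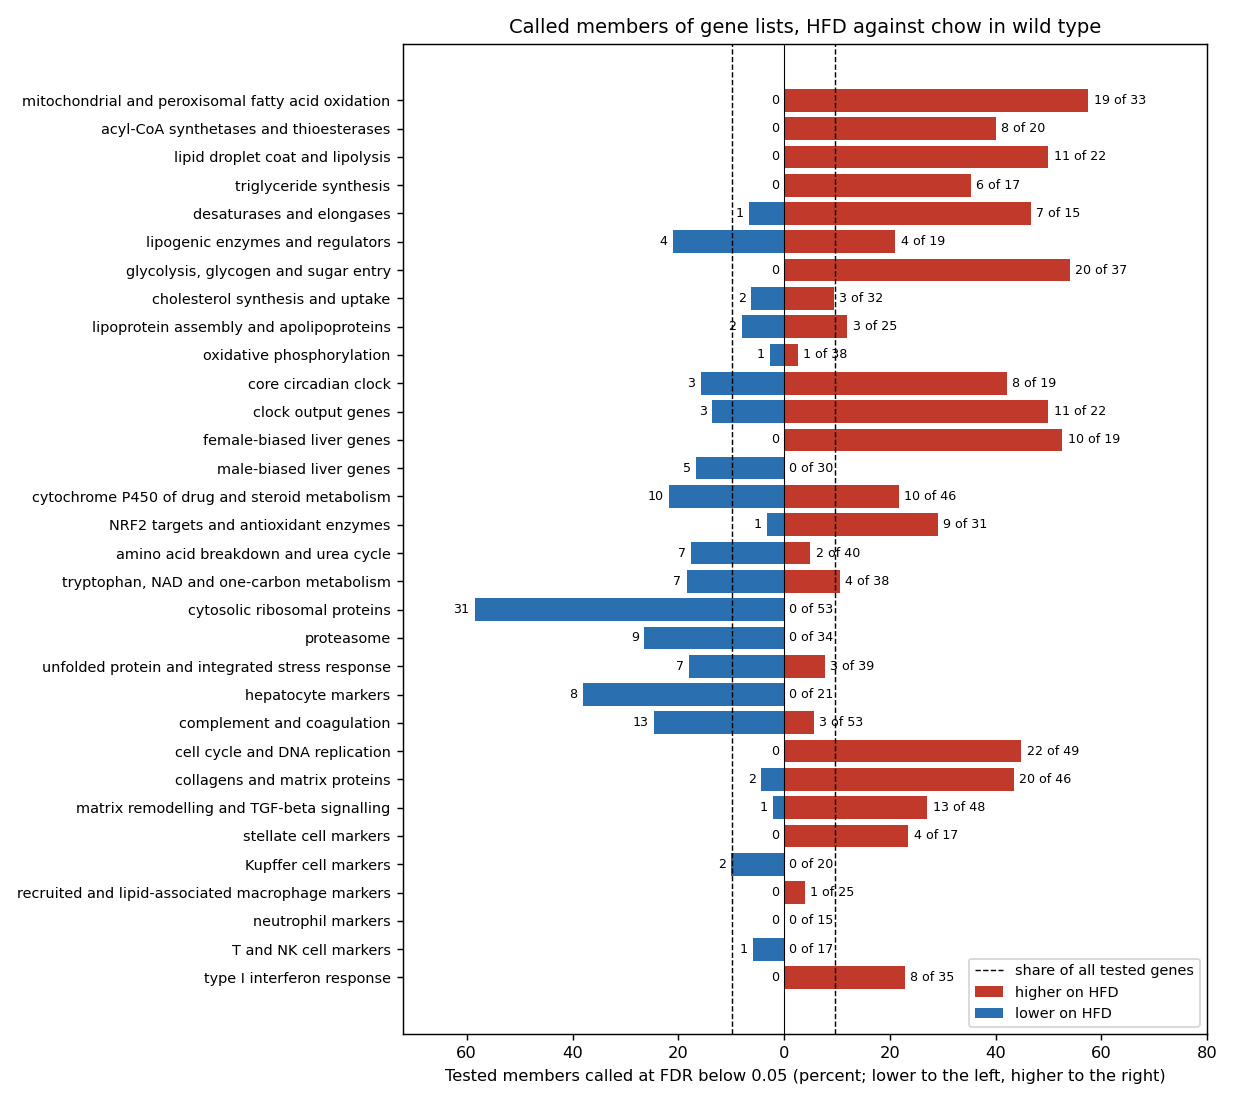
Percent of the tested members of 32 gene lists that rose (red, to the right) or fell (blue, to the left) on HFD in wild-type liver, with the numbers beside the bars and dashed lines at the shares of all tested genes (9.63% higher and 9.84% lower). Fatty acid oxidation reaches 19 of 33 on the right and cytosolic ribosomal proteins 31 of 53 on the left, while neutrophil markers have none on either side.

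The circadian clock is a loop in which the activators BMAL1 (Arntl) and CLOCK switch on their own repressors, the Per and Cry genes, through E-boxes, and in which DBP and TEF drive further genes through D-boxes. On HFD Arntl and Clock fell. Of 19 tested core clock genes, 8 rose and 3 fell, and of 22 clock output genes, 11 rose and 3 fell (median 0.90). The hour at which livers were taken is not in the labels. A difference in level, in phase or in the hour of collection between the groups cannot be told apart. Arntl was at 15.3, 17.5, 22.2 and 12.6 CPM on chow and at 4.45, 4.85, 1.99 and 5.07 CPM on HFD (-1.997, SE 0.247, FDR 2.9e-05). Clock, its partner, fell from 42.2, 47.2, 50.7 and 44.2 CPM to 29.2, 30.5, 28.5 and 32.9 CPM (-0.60, SE 0.0934, FDR 0.000171). Nfil3, the repressor that competes for D-boxes, fell from 41.5 to 53.9 CPM to 26.6 to 28.9 CPM (-0.77, SE 0.2, FDR 0.0109).

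Per3, a repressor of the loop, rose from 3.7, 4.24, 3.53 and 8.55 CPM to 30.7, 26.9, 34.6 and 21.8 CPM (2.51, SE 0.377, FDR 0.000248). Per2 rose from 8.23, 20.1, 14.2 and 28 CPM to 41.9, 48, 50.6 and 51.4 CPM (1.44, SE 0.358, FDR 0.0092), while Per1 overlapped between diets at 33.7 to 57.4 CPM on chow and 52.4 to 71.3 CPM on HFD (FDR 0.161). Ciart, another repressor, went from 9.9, 1.63, 3.44 and 4.7 CPM to 21.6, 31.1, 30.1 and 24 CPM (2.45, SE 0.504, FDR 0.00283), and its log2 fold change was 3.04 without WT_chow replicate 1. Dbp rose from 14.2, 11.4, 5.25 and 30.6 CPM to 78, 88.3, 103 and 93.9 CPM (2.57, SE 0.443, FDR 0.000848). Wee1, a kinase that holds back mitosis and is under clock control, rose from 1.02, 2.45, 1.27 and 3.95 CPM to 15.9, 23, 23.4 and 32.4 CPM (3.45, SE 0.366, FDR 8.85e-06). WT_chow replicate 4 was the chow liver with the highest Per2, Per3, Dbp and Wee1. Usp2, a rhythmic ubiquitin protease, rose 4.83-fold (FDR 0.0011). Tef rose from 91.9, 106, 90.6 and 140 CPM to 181, 212, 230 and 175 CPM (0.90, SE 0.177, FDR 0.0016), and Coq10b, a gene of coenzyme Q function, rose 2.23-fold (FDR 0.000256). In IL4KO liver mean Dbp was 73.5 CPM on chow and 85.1 CPM on HFD (FDR 0.809). Per3 was at 17.9 and 21.4 CPM there (FDR 0.713), while Wee1 rose (1.39, FDR 0.0204). For Dbp, Per3 and Wee1 the difference from the wild-type diet effect did not pass (FDR 0.179, 0.153 and 0.174). In the libraries labelled dKO, Dbp and Per3 rose (2.21 and 2.07).

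**Figure D4:**
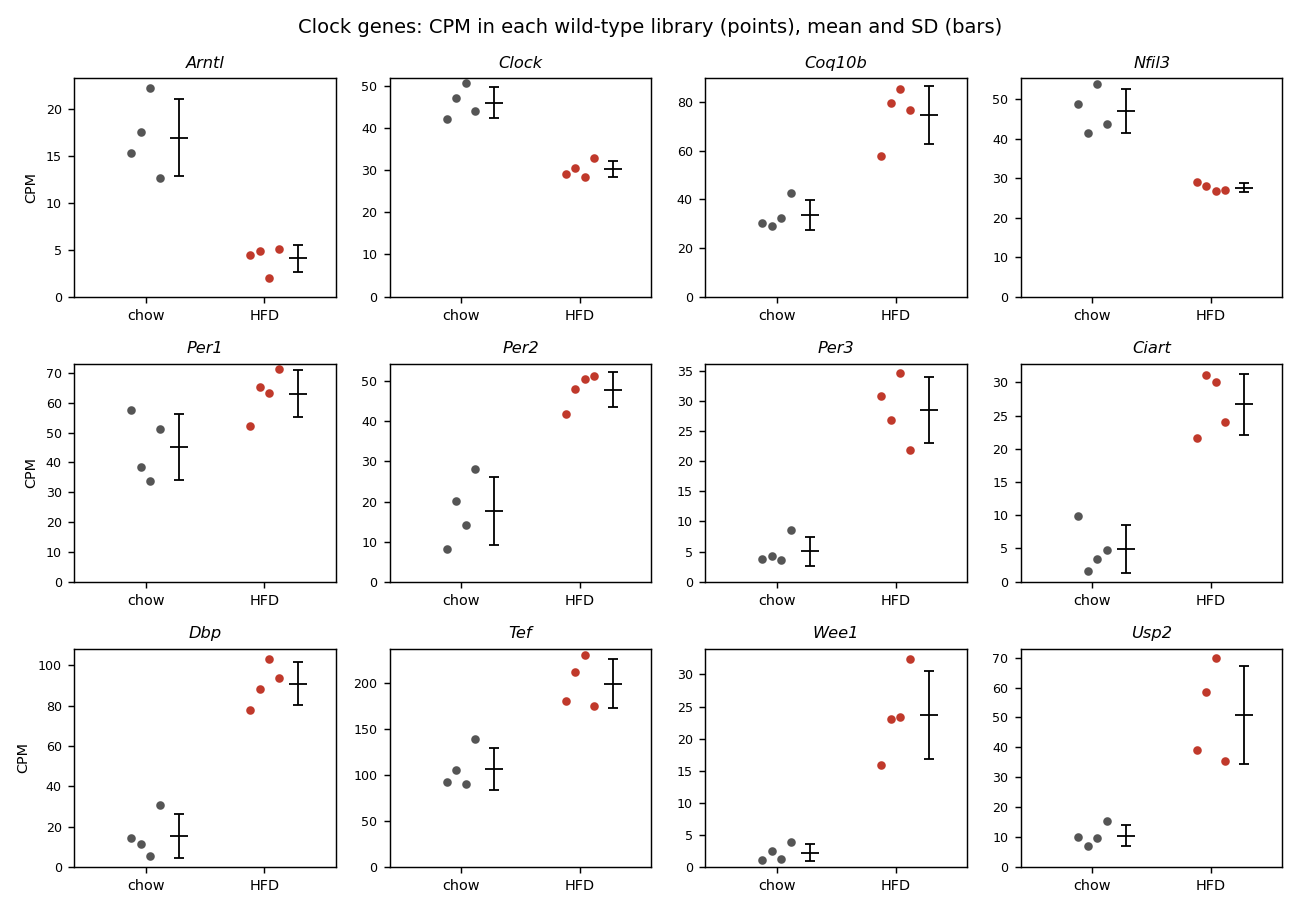
CPM (y axes, linear, from 0) of 12 clock and clock output genes in each wild-type library (points, in order of replicate), with mean and SD beside them, on chow (grey) and HFD (red). Arntl, Clock and Nfil3 are lower on HFD, Per1 overlaps between the diets, and the other 8 genes are higher in every HFD library than in any chow library.

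The E-box CACGTG, which reads the same on both strands, and the D-box TTATGTAA, read on either strand, were looked for in the 250 bases before the start site in RefSeq promoters (GRCm38.p6). RefSeq entries were found for 14 of the 19 core clock genes and 21 of the 22 output genes. An E-box was in 4 of 21 promoters of core clock genes (19%) and in 5 of 29 promoters of output genes (17.2%), against 6.02% of 32851 promoters. A D-box was in 1 of 21 and in 1 of 29, against 0.819% of all promoters. The promoters of genes that rose and that hold such a motif are shown because these letters are what the clock factors are known to bind. They are upstream bases only, 5′ to 3′ on the strand of the gene, in lower case with the E-boxes and D-boxes in capitals; TTACATAA is the D-box on the other strand. The entries are Ciart (chr3:95882229-95882478, minus strand, 3 E-boxes), Per3 (chr4:151044666-151044915, minus strand, 2 D-boxes), Coq10b (chr1:55052520-55052769, plus strand, 1 D-box and 1 E-box) and Tef (chr15:81802423-81802672, plus strand, 1 E-box, with a second entry at a start site further on that also holds 1).
Ciart: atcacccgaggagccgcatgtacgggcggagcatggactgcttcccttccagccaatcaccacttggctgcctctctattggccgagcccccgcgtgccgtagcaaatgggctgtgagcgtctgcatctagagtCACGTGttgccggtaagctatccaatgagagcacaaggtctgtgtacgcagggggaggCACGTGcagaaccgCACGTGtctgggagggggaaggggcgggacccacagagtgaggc
Per3: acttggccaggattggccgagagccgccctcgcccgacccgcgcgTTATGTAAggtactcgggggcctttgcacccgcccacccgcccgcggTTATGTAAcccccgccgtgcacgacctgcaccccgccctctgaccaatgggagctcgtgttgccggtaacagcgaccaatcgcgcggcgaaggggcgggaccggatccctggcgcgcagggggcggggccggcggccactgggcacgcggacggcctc
Coq10b: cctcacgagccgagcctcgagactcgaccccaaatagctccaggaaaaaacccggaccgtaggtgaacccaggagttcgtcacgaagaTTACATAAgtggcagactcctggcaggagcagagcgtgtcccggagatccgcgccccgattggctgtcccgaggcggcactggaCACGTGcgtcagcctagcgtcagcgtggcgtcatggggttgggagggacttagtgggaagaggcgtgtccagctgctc
Tef: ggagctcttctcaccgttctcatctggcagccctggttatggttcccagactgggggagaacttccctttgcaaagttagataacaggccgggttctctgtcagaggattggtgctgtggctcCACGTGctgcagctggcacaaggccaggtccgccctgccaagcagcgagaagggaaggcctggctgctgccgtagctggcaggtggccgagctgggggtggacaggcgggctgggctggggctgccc
In Ciart the 3 E-boxes end 110, 52 and 38 bases before the start site. Per1, Cry1, Bhlhe41, Tspan4 and Lonrf3 also held an E-box and did not pass the test, so the letters were not found only in genes that rose. The PPAR element, 2 AGGTCA half-sites in direct repeat with 1 base between them on either strand, was in 0 of 26 promoters of fatty acid oxidation genes and 0 of 20 promoters of the other PPARA targets, and in 11 of all 32851. Such exact matches describe letters in a window and show no binding.

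Genes known to differ between male and female mouse liver changed in these males. Of 19 tested female-biased genes, 10 rose and 0 fell (median 1.08), and of 30 male-biased genes 0 rose and 5 fell (median -1.05), or 13 with DESeq2 and 10 in the 8 wild-type libraries alone. All 30 male-biased genes had log2 fold changes below 0. The summed level of the female-biased list was 701 to 892 CPM on chow and 1825 to 3047 CPM on HFD, and that of the male-biased list 20866 to 29340 CPM and 8089 to 20323 CPM. HFD replicates 1 and 3 were furthest from chow in both sums, replicate 4 was nearest in the first and replicate 2 in the second. Cyp2a4, a steroid hydroxylase of female liver, was at 0.555, 1.14, 1.09 and 1.03 CPM on chow and at 78, 10.7, 68.7 and 29.2 CPM on HFD (5.58, SE 1.12, FDR 0.00255), with an FDR of 0.0771 by limma-voom and a difference of 4.16 on the deposited log2 values. Cyp2b9 was at 3.14, 34.8, 5.07 and 22.5 CPM against 370, 107, 384 and 157 CPM (3.94, SE 1.05, FDR 0.0144), and its log2 fold change was 4.64 without WT_chow replicate 2. Hsd3b5, a steroid enzyme of male liver, was at 80.2, 102, 130 and 130 CPM on chow and at 0.0695, 18.2, 0 and 3.93 CPM on HFD (-4.28, SE 1.16, FDR 0.0158). It missed the threshold without WT_HFD replicate 4 (FDR 0.0506). Its log2 fold change was -6.07 without WT_HFD replicate 2, -6.69 by limma-voom and -5.14 on the deposited log2 values.

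Cyp2b13, a near copy of Cyp2b9, was at 0, 0.408, 0 and 0.47 CPM on chow and at 34, 1.15, 12.3 and 2.94 CPM on HFD (5.76, SE 1.33, FDR 0.00758). Its value was 4.50 without WT_HFD replicate 1 and 2.92 on the deposited log2 values, and limma-voom and the 8 wild-type libraries alone gave an FDR of 0.16 and 0.0609. Reads of Cyp2a4 and Cyp2a5, and of Cyp2b9 and Cyp2b13, can be exchanged in gene counts. Fmo2, a monooxygenase, rose from 8.05, 9.05, 4.35 and 8.64 CPM to 36.4, 19.6, 36.8 and 14.2 CPM (1.81, SE 0.441, FDR 0.00818). Mup20, a pheromone protein gene of male mice, overlapped between diets at 945 to 3484 CPM on chow and 670 to 2838 CPM on HFD (FDR 0.493).

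The wider cytochrome P450 list, genes of drug and steroid metabolism, was split, with 10 of 46 higher and 10 lower. Cyp2c29, an enzyme of drug and retinoid oxidation, fell from 2539, 1826, 2338 and 2634 CPM to 526, 499, 597 and 403 CPM (-2.21, SE 0.235, FDR 5.93e-06). Of 31 NRF2 targets and antioxidant genes, 9 rose and 1 fell. Nqo1, a quinone reductase, rose from 8.42, 4.73, 7.34 and 5.45 CPM to 14.4, 10.9, 15.7 and 13.1 CPM (1.06, SE 0.261, FDR 0.00722), and Srxn1, which repairs peroxiredoxins, rose 1.81-fold (FDR 0.00449). In bile acid handling, 3 of 28 genes rose (10.7%) and 4 fell (14.3%), against 9.63% and 9.84% of all tested genes. The counts were 4 and 7 in the 8 wild-type libraries alone. Abcb11, the pump that exports bile acids, fell from 761, 732, 727 and 715 CPM to 420, 416, 508 and 418 CPM (-0.74, SE 0.128, FDR 0.000519). Cyp2c70, which makes the muricholic acids of mice, fell 2.11-fold (FDR 0.000508). Abcb1a, a drug efflux pump, rose 3.88-fold (FDR 0.000271), and Cyp7a1, the rate-limiting enzyme of bile acid synthesis, overlapped at 21.2 to 98.1 CPM on chow and 56.9 to 114 CPM on HFD (FDR 0.353).

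Matrix genes, which stellate cells and fibroblasts mainly express, rose more often than they fell. Of 46 tested genes of collagens and matrix proteins, 20 rose and 2 fell (median 0.75). Their summed level was 6401 to 7832 CPM on chow and 5854 to 6443 CPM on HFD, and Vtn, a hepatocyte product that fell, was the most abundant member. The number depends on single libraries: the genes that rose and fell numbered 8 and 1 without WT_HFD replicate 1, 13 and 1 without WT_HFD replicate 4, 9 and 1 without WT_chow replicate 2, 7 and 2 without WT_chow replicate 3 and 9 and 2 without WT_chow replicate 4. Of 48 genes of matrix remodelling and TGF-beta signalling, 13 rose and 1 fell, or 9 and 0 without WT_chow replicate 2 or WT_chow replicate 3. Col1a1, the gene of the main fibrillar collagen, was at 7.4, 6.12, 3.71 and 3.76 CPM on chow and at 51, 13.9, 36.4 and 26.9 CPM on HFD (2.60, SE 0.688, FDR 0.0135; FDR 0.0609 by limma-voom). Loxl2, a collagen cross-linking enzyme, rose from 5.83, 2.85, 3.26 and 3.85 CPM to 15.3, 11.3, 9.11 and 14.1 CPM (1.67, SE 0.354, FDR 0.00285), and Thbs2, a matrix glycoprotein, rose 2.27-fold (FDR 0.00329).

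Stellate cell markers, read beside the matrix genes, summed to 309 to 409.6 CPM on chow and 374 to 457 CPM on HFD, and 4 of 17 rose and 0 fell, or 2 without WT_HFD replicate 4. Rgs5, a pericyte gene, rose from 6.2, 4.16, 3.44 and 4.23 CPM to 13.4, 13.5, 11 and 14.4 CPM (1.55, SE 0.232, FDR 0.000132). Acta2, the actin of activated stellate cells, was at 0.453 to 2.91 CPM on chow and 2.08 to 4.42 CPM on HFD (FDR 0.443). The part of cell numbers in the matrix values was not tested. Anxa2 and Anxa5, genes of membrane-binding annexins, rose 3.76-fold and 2.47-fold (FDR 0.00634 and 0.00698), with Anxa2 at 80.7 CPM in WT_HFD replicate 1 and 36.3 CPM in replicate 2. Among endothelial markers, Lyve1 rose from 19.4, 11.3, 15.3 and 15.6 CPM to 41.9, 47.9, 23.6 and 38.6 CPM (1.32, SE 0.261, FDR 0.00202). Clec4g, a lectin of the same sinusoidal cells, fell from 52.5, 72.7, 58.2 and 53.9 CPM to 44.1, 40.3, 45.1 and 37.7 CPM (-0.51, SE 0.116, FDR 0.00399). In the whole list 4 of 26 rose and 4 fell, and its summed level was 806 to 821 CPM on chow and 753 to 887 CPM on HFD. The counts were 3 and 2 without WT_HFD replicate 2 or WT_chow replicate 4, and 2 and 3 without WT_chow replicate 1 or WT_chow replicate 3.

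Few immune cell markers passed the test. Of 20 tested Kupffer cell markers, Id3 and Nr1h3 fell (10%) and 0 rose, against 9.84% and 9.63% of all tested genes. Without WT_HFD replicate 4, 1 fell and 0 rose. The defining genes overlapped between diets. Clec4f was at 84.5 to 132 CPM on chow and 96 to 106 CPM on HFD (FDR 0.717), Vsig4 gave an FDR of 0.723 and Timd4, a marker of resident cells, an FDR of 0.656. Of 25 markers of recruited and lipid-associated macrophages, 1 rose, Trem2, a receptor of lipid-handling macrophages, at 0.647, 0.245, 0.362 and 0.188 CPM on chow and 2.43, 1.15, 1.28 and 0.872 CPM on HFD (1.97, SE 0.578, FDR 0.0196). Trem2 missed the threshold without WT_HFD replicate 1 (FDR 0.0873), WT_chow replicate 2 (FDR 0.0623) or WT_chow replicate 4 (FDR 0.0623), and on the deposited log2 values (0.86, FDR 0.0681). In this list 4% rose, against 9.63% of all tested genes. Of its 25 log2 fold changes 21 were above 0 (median 0.67). In 6 (24%) every HFD library was above every chow library, against 12.4% of all tested genes. The number that rose was 5 in the 8 wild-type libraries alone, 3 with DESeq2, 2 without WT_chow replicate 1 and 0 without WT_HFD replicate 1, WT_chow replicate 2 or WT_chow replicate 4. Spp1, the osteopontin gene, was at 42, 40.9, 35 and 40.8 CPM on chow and at 71.5, 63, 65.2 and 97.4 CPM on HFD without passing (FDR 0.107; 0.00141 in the 8 wild-type libraries alone).

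Neutrophil markers gave 0 of 15 in either direction by edgeR, against 19.5% of all tested genes. Of these markers, 1 had an unadjusted p below 0.05, and 1 was lower with DESeq2 or in the 8 wild-type libraries alone. They summed to 9.05 to 107 CPM on chow and 50.8 to 86.9 CPM on HFD. Of the T and NK cell markers in the file, 11 had too few counts to be tested. Of the 17 tested, 1 fell, Cxcr6 (5.88%, against 9.84% of all tested genes). That call was lost without WT_HFD replicate 2, WT_HFD replicate 4 or WT_chow replicate 2, and 2 fell without WT_HFD replicate 1. Their sum was 9.05 to 20.1 CPM on chow and 10.2 to 12.2 CPM on HFD, so lymphocytes were at the limit of what these bulk libraries show. Of 35 genes of the type I interferon response, 8 rose and 0 fell, with 4 without WT_HFD replicate 1, 3 without WT_HFD replicate 3, 4 without WT_chow replicate 2, 3 without WT_chow replicate 3, 3 without WT_chow replicate 4 and 5 with upper quartile factors. Usp18, which damps interferon signalling, rose from 8.51, 8.24, 3.53 and 4.6 CPM to 18.8, 15.2, 16.6 and 15.6 CPM (1.41, SE 0.224, FDR 0.000247).

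Cell division genes, all at low levels where named here, rose where they changed. Of 49 tested genes of the cell cycle and DNA replication, 22 rose and 0 fell (median 0.91), or 14 without WT_chow replicate 3, and their summed level was 276 to 301 CPM on chow and 320.0 to 363 CPM on HFD. Mcm2, part of the replication helicase, rose from 3.05, 2.53, 2.63 and 1.6 CPM to 9.73, 4.54, 5.96 and 9.32 CPM (1.60, SE 0.316, FDR 0.00146). Its partner Mcm5 rose from 0.658 to 2.03 CPM to 2.85 to 5.77 CPM, and Top2a, a topoisomerase of dividing cells, from 0.0906 to 1.06 CPM to 1.87 to 3.49 CPM (FDR 0.0048). On the deposited log2 values the changes were smaller, at 0.95 for Mcm5 and 1.19 for Top2a.

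In some genes that rose, 1 HFD liver lay far above the other 3, which were themselves above all chow livers. Atf3, an immediate-early stress factor, was at 1.85, 1.14, 1.09 and 1.03 CPM on chow and at 5.01, 7.31, 4.91 and 89.8 CPM on HFD (4.41, SE 0.923, FDR 0.00321). Without WT_HFD replicate 4 its log2 fold change was 2.17 (FDR 0.0041). It was 2.49 on the deposited log2 values, and limma-voom and the 8 wild-type libraries alone gave an FDR of 0.113 and 0.0911. The growth brake Btg2 was at 47, 92.5, 54 and 331 CPM on HFD against 28, 7.83, 10.2 and 9.49 CPM on chow (3.25, SE 0.574, FDR 0.00104), with 2.22 (FDR 0.00173) without WT_HFD replicate 4 and 3.84 without WT_chow replicate 1. Klf6, a transcription factor of injury, was at 141 CPM in WT_HFD replicate 4, 34.1 to 35 CPM in the other HFD livers and 10.5 to 14.6 CPM on chow (2.31, SE 0.453), or 1.47 (FDR 0.00355) without that library. Jun, a subunit of AP-1, was at 82.9, 113, 85.9 and 389 CPM on HFD against 13.9 to 46.4 CPM on chow (2.53, SE 0.547), or 1.69 (FDR 0.0181) without WT_HFD replicate 4, and its FDR was 0.0502 in the 8 wild-type libraries alone.

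**Figure D5:**
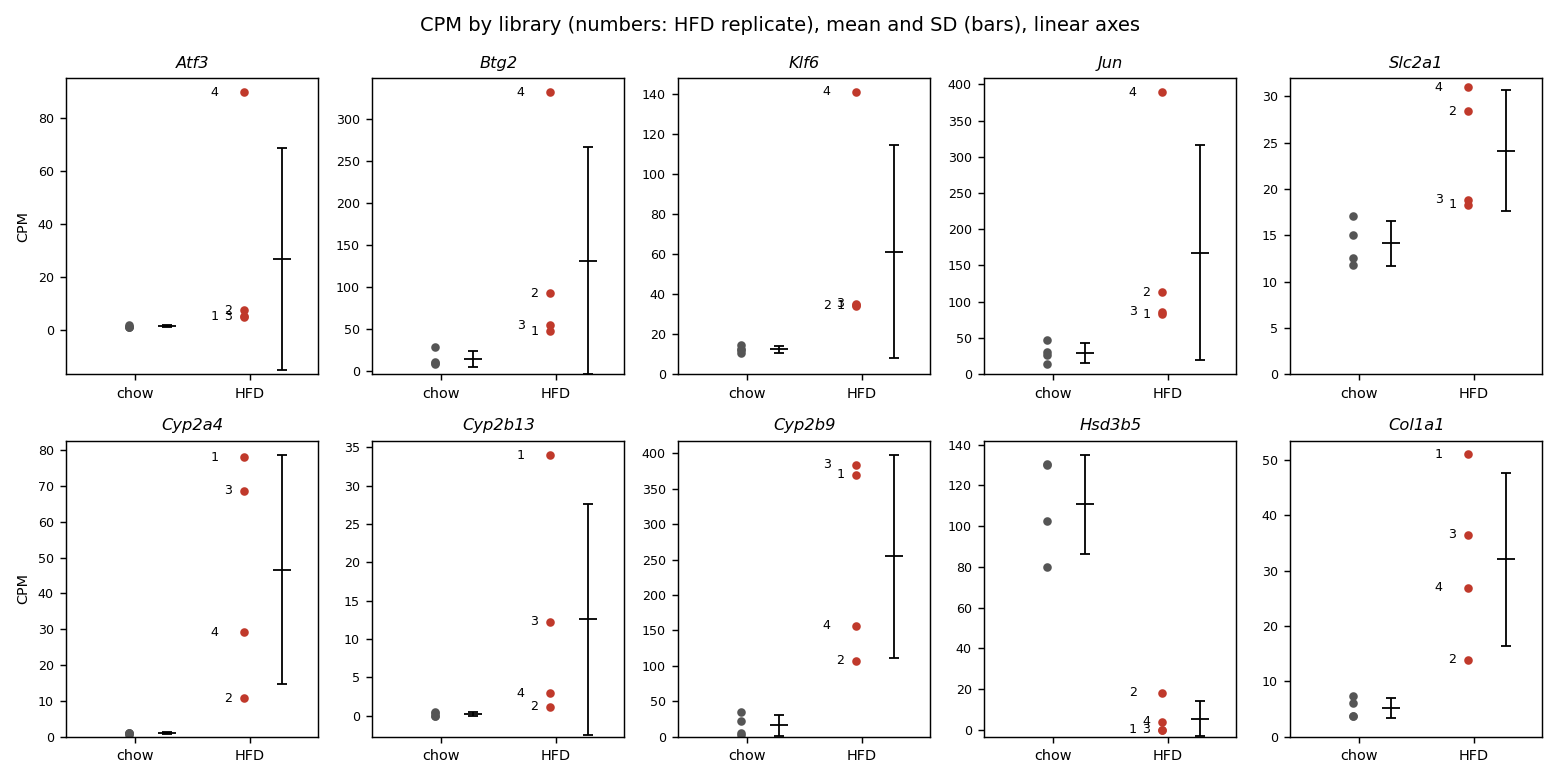
CPM (y axes, linear) of 10 genes that differ among the HFD livers, in each wild-type library (points, with the replicate number beside the HFD points), with mean and SD; SD bars that pass below 0 are shown as computed. WT_HFD replicate 4 is alone at the top for Atf3, Btg2, Klf6 and Jun, replicates 2 and 4 are high for Slc2a1, and replicates 1 and 3 are furthest from chow for Cyp2a4, Cyp2b13, Cyp2b9, Hsd3b5 and Col1a1.

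Several genes with the lowest FDR were in none of the gene lists used here. Slc16a12, a creatine transporter gene, was at 39.9, 42.1, 38 and 43.1 CPM on chow and at 86, 94.5, 86.7 and 86.4 CPM on HFD (1.12, SE 0.102, FDR 1.13e-06). Pnp, a purine salvage enzyme, fell from 107, 139, 132 and 115 CPM to 64.2, 65.8, 60.7 and 63.8 CPM (-0.95, SE 0.09, FDR 1.13e-06). Cpeb1, an RNA-binding regulator of polyadenylation, rose from 2.22, 1.88, 2.08 and 2.35 CPM to 8.48, 5.54, 7.94 and 8.5 CPM (1.84, SE 0.173, FDR 1.13e-06). Synj2, a phosphoinositide phosphatase, rose 4.36-fold (FDR 1.82e-06).

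By size, the largest falls without overlap included Adgrf1, an adhesion receptor gene, from 5.09, 7.83, 6.52 and 5.64 CPM to 0.139, 0.77, 0.35 and 0.382 CPM (-3.92, SE 0.663, FDR 0.000556). Srgap3, a regulator of small GTPases, fell from 7.4, 3.75, 4.89 and 4.23 CPM to 0.348, 0.847, 0.467 and 0.491 CPM (-3.22, SE 0.297, FDR 1.13e-06), Fam222a 7.83-fold and Cadm4, a cell adhesion gene, 7.23-fold. On the deposited log2 values these differences were smaller: -2.63 for Adgrf1, -2.35 for Srgap3, -1.66 for Fam222a and -2.03 for Cadm4. Slco2a1, the prostaglandin transporter gene, fell from 56.6, 80.2, 80.3 and 78.5 CPM to 18.4, 28.3, 22.1 and 24.5 CPM (-1.66, SE 0.178, FDR 8.74e-06). Tuba4a, an alpha-tubulin gene, fell 2.68-fold (FDR 8.85e-06). Themis, known for its part in T cell development, rose from 2.4, 0.408, 0.634 and 1.03 CPM to 9.53, 9.16, 21.6 and 13.6 CPM (3.58, SE 0.663, FDR 0.00126), while T and NK cell markers were as low as given above. Its value was 4.27 without WT_chow replicate 1 and 2.87 on the deposited log2 values. Rad51b, a DNA repair gene, was at 0.37, 2.45, 0.815 and 0.658 CPM on chow and 19.1, 6.62, 17.9 and 8.01 CPM on HFD (3.52, SE 0.778, FDR 0.00441), or 4.35 without WT_chow replicate 2 and 2.70 on the deposited log2 values.

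The wild-type response was set against the diet response of the other genotypes, which have their own chow controls. IL4KO liver had 4 chow and 3 HFD libraries, of 7114454 to 11179738 counts, so depth and the number of libraries differ from wild type. There, 1170 genes (9.08%) passed, and 631 genes passed in the same direction in both genotypes, which is 25.1% of the wild-type genes and 53.9% of the IL4KO genes, with 3 in opposite directions. The test of the difference between the 2 diet effects called 6 genes (0.0465%), and 68 with DESeq2. The count was 12 without WT_chow replicate 1, 2 without IL4KO_chow replicate 4 and 3 without WT_chow replicate 2, WT_chow replicate 4, IL4KO_chow replicate 2 or IL4KO_HFD replicate 3. Gpam rose in wild type and stood at 155 ± 18 and 132 ± 3.4 CPM in IL4KO (difference -1.29, SE 0.212, FDR 0.0147). That FDR was 0.0574, 0.0762, 0.0581 and 0.0515 without IL4KO_HFD replicate 1, IL4KO_HFD replicate 3, IL4KO_chow replicate 4 and WT_chow replicate 4. Abtb2 fell in wild type from 23.5 ± 2.32 to 7.77 ± 2.04 CPM and stood at 9.12 ± 1.84 and 9.59 ± 2.95 CPM in IL4KO (1.63, SE 0.287, FDR 0.026), a call lost by limma-voom and without any of 10 single libraries, with FDRs of 0.0515 to 0.129.

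In the libraries labelled dKO, Il10 had 41 to 67 counts on chow and 6 to 21 on HFD, against 0 to 4 in wild type. Gene counts alone do not settle the genotype, which was not tested. These dKO libraries held 12692787 to 30205070 counts, against 8601857 to 18240402 in wild type, so depth differs here too. In them 5153 genes (40%) passed, and 862 of the wild-type genes passed in the same direction and 200 in the opposite one. Those 862 are 34.3% of the wild-type genes and 16.7% of the dKO genes. The diet effects differed at 3254 genes (25.2%), among them 961 (38.3%) of the 2511 genes that passed in wild type. The number was 4489 without dKO_HFD replicate 4, and 2135 without dKO_HFD replicate 2. It was 2193 after thinning to the smallest library. The part of depth in these counts was not tested further.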

How the data were processed

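Liver mRNA was sequenced in 23 libraries with a stranded kit, per the labels. The submitters' processing notes name bcl2fastq 2.16, TopHat2 2.0.8, Partek and the mm10 build. Annotation, counting and strand settings: not given in the sources used here. Estimated counts for 24440 genes were deposited by the authors, which need not be whole and were rounded here. The authors also deposited log2 values of depth-scaled reads, used only as an alternative. These gave smaller changes for several low genes named here and a larger one for Hsd3b5. A total of 6462 genes were at 0 in every library. After filterByExpr by group and TMM scaling, 12891 genes were tested with edgeR 4.0.16 (robust quasi-likelihood, R 4.3.3) on 6 group means over 23 libraries, with 17 residual degrees of freedom and Benjamini-Hochberg adjustment at 0.05. CPM use the TMM-scaled library size. The SE is the log2 fold change divided by the square root of F.

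Alternatives were RLE or upper quartile factors, no filter or a stricter one, DESeq2 1.42.0, limma-voom (limma 3.58.1), the 8 wild-type libraries alone, no robust estimation, the deposited log2 values, thinning to the smallest library, and leaving out each library. The test was checked on simulated counts with planted changes. Named genes are Il4, Il10, lead and strongest members of each list, genes ranked by fold, FDR or CPM difference, and genes whose diet effects differ between genotypes. Pfkl, Gbe1, Ugp2, Cbs, Gnmt, Coq10b and the members named for counts of 5 or fewer were chosen after their values were seen. The comparison, gene lists and named genes were chosen with earlier results of these data known. Results on some genes are not reported here. Lists are described by counts and medians, with no set test.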

Additional observations from a re-analysis of the deposited data

Results flagged for a closer look

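In 22 of 272 groups of 4 libraries, 8.09%, the highest or lowest CPM of a gene described above lay far from the other 3. Far means a Dixon's ratio above its critical value, which about 1 in 20 groups of independent, normally distributed values would pass. The CPM of these chosen genes need not meet that, and several genes flag the same library, so the shares cannot be compared. WT_HFD replicate 4 was the library apart in Atf3 (89.8 CPM), Btg2 (331 CPM), Klf6 (141 CPM), Jun (389 CPM), Hilpda (12.5 CPM) and Ugp2 (791 CPM). The other HFD libraries apart were replicate 1 in Acot11 (26 CPM), replicate 2 in Gpam (191 CPM) and Slc16a12 (94.5 CPM), and replicate 3 in Abcb11 (508 CPM). Among chow libraries, replicate 1 was apart in Scd1 (26665 CPM), Cyp2c70 (572 CPM), Anxa5 (98 CPM), Atf3 (1.85 CPM), Btg2 (28 CPM) and Slco2a1 (56.6 CPM). WT_chow replicate 2 was apart in Pparg (7.99 CPM), replicate 3 in Fabp2 (110 CPM) and Elovl3 (745 CPM), and replicate 4 in Apoc2 (218 CPM), Per3 (8.55 CPM) and Hnf4a (1253 CPM).

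By the test of the difference itself, the diet effect differed between IL4KO and wild type at 6 genes and between the libraries labelled dKO and wild type at 3254 genes. For IL4KO minus wild type the difference in log2 fold change was 1.63 for Abtb2 and -1.29 for Gpam.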

How the results depend on the processing

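The number of genes that passed in wild type, 2511, was 1931 after thinning to 2757 with DESeq2 over 10 alternatives, and 1750 to 2416 when each of 8 libraries was left out. Of the 2511 genes, 1180 (47.0%) passed under every alternative and 1315 (52.4%) passed each time a library was left out, and 0 were called in the opposite direction. The number of genes whose diet effect differed between IL4KO and wild type, 6, was 68 with DESeq2 and 2 to 12 when libraries were left out. For dKO and wild type, 3254, it was 2193 after thinning to the smallest library and 2135 to 4489 when libraries were left out. With upper quartile factors 1135 were higher and 1832 lower, against 1624 and 1630. The cause was not tested. A fit of the 8 wild-type libraries alone cannot give these differences and was not run for them. Of 133 genes given with values, 112 passed and 99 of these did so under every alternative. These genes were chosen in part by fold, FDR or CPM difference in the same data, so their share does not stand for all 2511 genes. The library totals, genes detected and share of the top genes kept their direction when libraries were left out. No paired analysis was possible because the labels carry no replicate numbers. The 4 libraries in each wild-type group and the depth of the smallest library limit what can be seen for genes of low count.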
